A study of Rattus norvegicus with 8 samples.

Results

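The genes described here are 43 named genes of the cell division cycle, 17 that act in S phase and DNA replication and 26 that act in G2 and mitosis. They were picked by name as a set of cell cycle genes, with earlier results of these data known. Each was measured by the probe set annotated with its symbol alone and, where a gene had several, by the one with the highest mean log2 intensity over the 8 arrays. Of the 43, 38 were measured among 18166 genes on the array, 15 replication genes and 23 mitosis genes. Rrm1, Tk1, Birc5 and Cenpe were not analysed here for want of a probe set under their single symbol, nor was Nek2, whose probe set is shared with another gene.

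Total RNA came from homogenised kidney of ten-week-old male Wistar rats and was hybridised to whole-transcript microarrays. All 8 samples carry the same treatment label, ethylene glycol given daily and vitamin D given on alternate days, for a treatment time of 1 week. The body turns ethylene glycol into oxalate, and the pair is used to form calcium oxalate crystals in the kidney of rats. Tissue region is the label that differs, with 4 arrays of cortex and 4 of medulla. No treated against untreated comparison was made, because the treatment label is shared. The labels do not say whether the arrays came from separate animals, and p-values then cover no more than the spread among these 8 arrays, some of it perhaps technical. The number of arrays limits the precision. In pieces of tissue, fewer dividing cells and less RNA per dividing cell cannot be told apart.

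The replicate 4 array of each region stood apart from the others of its region. The summed intensity of 12 markers of injured tubule was 11031 on cortex replicate 4 and 1921 to 2531 on the other cortex arrays. In medulla it was 13411 on replicate 4, 7021 on replicate 3, and 2636 and 2046 on replicates 1 and 2. Over all genes, 2.19% lay at least 1.5-fold above the other 3 arrays on cortex replicate 4 and 1.95% on medulla replicate 4. Markers of the labelled tissue were present on every array, with 10 proximal tubule markers summing to 11931 to 15117 in cortex and to 8763 to 14210 in medulla, so these sums overlapped between the regions.

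A dividing cell first copies its DNA. Cyclin E with Cdk2, and the E2F factors, start S phase. The Mcm2 to Mcm7 proteins form the helicase that opens the DNA, Pcna is the sliding clamp of the polymerases, and Rrm2 and Tyms make DNA precursors. Cyclin B with Cdk1 then drives mitosis, in which kinesins and their partners build the spindle and the Bub1, Bub1b and Ttk checkpoint holds the chromosomes until all are attached. In healthy adult kidney few tubule cells divide, and after tubular injury surviving cells are known to re-enter the cycle.

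Medulla was compared with cortex to ask whether the division genes differ by tissue region. By limma with Benjamini-Hochberg adjustment over all genes, 0 of 38 members were called higher in medulla (background 0%) and 0 lower (background 0%), with adjusted p between 0.878 and 0.999. At an unadjusted p under 0.05 the counts were also 0 higher (background 2.77%) and 0 lower (background 2.58%). The medulla values of no member lay all above its cortex values (background 1.1%) or all below them (background 1.74%). The medulla mean was the higher one in 13 of 15 replication genes and 20 of 23 mitosis genes, against 45.8% of all genes. The median medulla minus cortex difference was 0.07 log2 units for replication genes and 0.19 for mitosis genes, and -0.01 over all genes. Without both replicate 4 arrays, an alternative added with the values in view, these medians were 0.02 and 0.12, and without medulla replicate 4 alone they were -0.08 and -0.07.

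The largest differences belonged to 3 mitosis genes. Top2a, the topoisomerase that untangles sister DNA molecules, had a mean log2 intensity of 5.78 ± 0.63 (SD, n = 4) over the cortex arrays and 6.20 ± 1.09 (SD, n = 4) over those of medulla, so medulla was higher by 0.42 ± 0.56 (SE). Mki67, which encodes the proliferation antigen Ki-67, differed by 0.40 ± 0.67 (SE), and Prc1, which bundles the microtubules between separating chromosomes, by 0.34 ± 0.41 (SE). Each difference is smaller than its standard error, and the limma adjusted p was 0.94, 0.952 and 0.932. Without medulla replicate 4 the differences were -0.01 for Top2a, -0.14 for Mki67 and -0.004 for Prc1. At the other end, Melk, a kinase of dividing cells, differed by -0.15 ± 0.15 (SE), the spindle kinesin gene Kif11 by -0.10 ± 0.36 and the spindle pole kinase gene Aurka by -0.10 ± 0.13. Kif11 stood at 0.15 without cortex replicate 4.

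The spread of the members among the arrays of each region was described next, without a test. The design text of the series picks genes by a 2-fold change in each region's own analysis, so each member's range was taken as its highest minus its lowest log2 value over the 4 arrays of a region. The median range was 0.72 in cortex for both classes, against 0.21 over all genes. In medulla it was 0.87 for replication genes and 1.12 for mitosis genes, against 0.25 over all genes. Without the replicate 4 array of the region these medians were 0.17 and 0.19 in cortex and 0.24 and 0.64 in medulla.

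In cortex 2 of 15 replication genes and 3 of 23 mitosis genes reached a 2-fold range, against 3.6% of all genes. In medulla 7 replication genes and 17 mitosis genes did, against 3.8% of all genes. A medulla range of 2-fold without a cortex range of 2-fold was found in 5 replication genes and 14 mitosis genes, against 1.59% of all genes. Both regions were passed by Mcm5, Rrm2, Mki67, Top2a and Kif11, 5 of 38 members, against 2.21% of all genes. Without cortex replicate 4 no member reached 2-fold in cortex, and without medulla replicate 4 there were 0 replication genes and 4 mitosis genes in medulla. Several members lay just under the threshold in cortex, with ranges of 0.99 for Mcm3 and 0.98 for both Ccna2 and Prc1. The range was wider in medulla than in cortex in 34 of 38 members, against 57% of all genes.

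**Figure D1:**
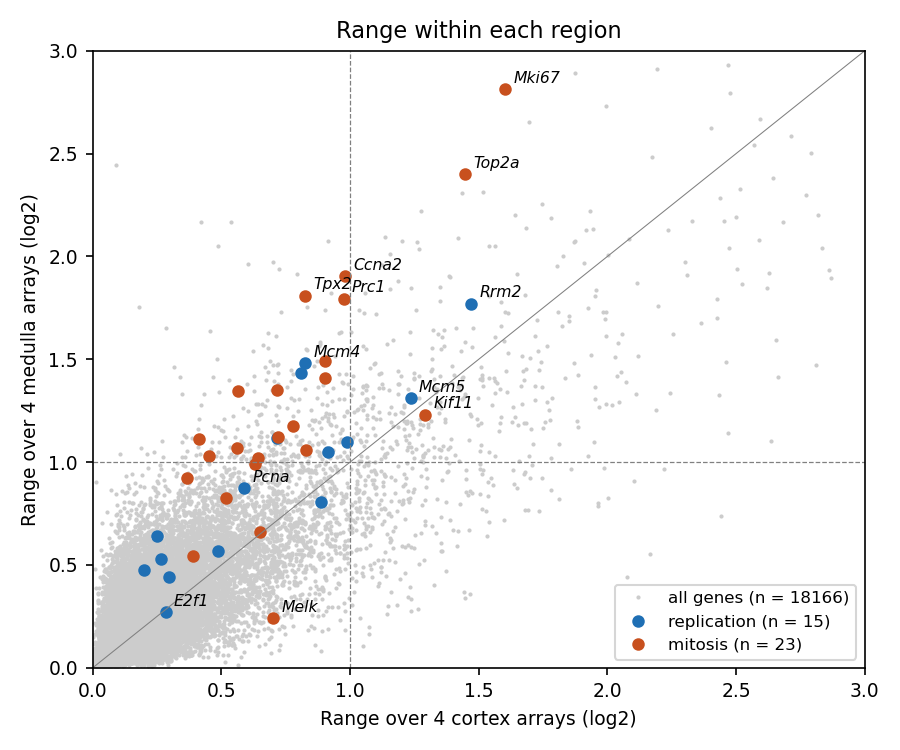
Range over the 4 cortex arrays (x axis) and over the 4 medulla arrays (y axis), in log2 units, for all 18166 genes in grey, 15 replication genes in blue and 23 mitosis genes in orange, with dashed lines at 2-fold and a diagonal of equal ranges; 22 genes lie beyond the axes. Most members lie above the diagonal, Mki67 and Top2a have the widest medulla ranges among them (2.81 and 2.40), and E2f1 lies among the bulk of genes.

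The array that set these ranges was the same in almost every member. The highest cortex value and the highest medulla value both lay on replicate 4 in 14 of 15 replication genes and 21 of 23 mitosis genes, against 17% of all genes. In medulla alone, replicate 4 was highest in 15 of 15 and 22 of 23, against 27.1% of all genes. The members not highest on replicate 4 of both were Tyms, Aurka and Melk. The median deviation of the replication genes from their region mean was 0.46 on cortex replicate 4 and -0.18 to -0.09 on the other cortex arrays. For the mitosis genes it was 0.46 against -0.22 to -0.13. In cortex the classes therefore shared the same shape, with 1 array high and 3 arrays close together. Over all genes the median deviation lay between -0.01 and 0.002 on every array.

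**Figure D2:**
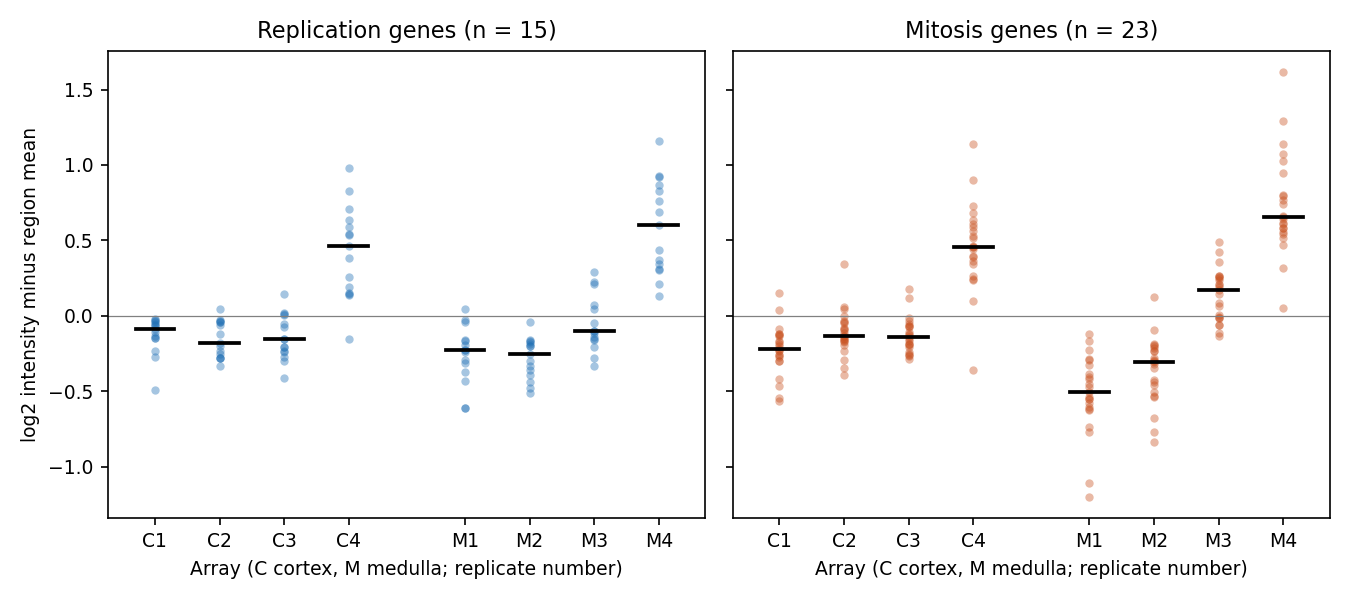
Deviation of each member from the mean of its region (y axis, log2 intensity) on the cortex arrays C1 to C4 and the medulla arrays M1 to M4 (x axis), for 15 replication genes on the left and 23 mitosis genes on the right; each point is 1 gene and each black bar the median of the class. Both classes are high on C4 and M4, the replication and mitosis medians are -0.23 and -0.50 on M1 and -0.10 and 0.17 on M3, and these values shift with the arrays in the region mean.

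In medulla the class medians lay apart on replicates 1 and 3, in opposite directions. On replicate 1 the median deviation was -0.50 for mitosis genes and -0.23 for replication genes, and on replicate 3 it was 0.17 and -0.10. On replicate 2 it was -0.31 and -0.25, and on replicate 4 it was 0.65 and 0.60. Because deviations are taken from the region mean, they shift with the arrays in that mean. Without medulla replicate 4 the replicate 3 medians were 0.40 for mitosis genes and 0.15 for replication genes, without replicate 1 they were -0.04 and -0.12, and without replicate 2 they were 0.01 and -0.16. Replicate 3 was above both replicates 1 and 2 in 22 of 23 mitosis genes and 10 of 15 replication genes, against 35.5% of all genes. It was at least 1.5-fold above both, a threshold set with the values in view, in 8 mitosis genes and 2 replication genes, against 1.28% of all genes. The median excess of replicate 3 over the higher of replicates 1 and 2 was 0.47 log2 units for mitosis genes, 0.12 for replication genes and -0.05 over all genes. With 1 such array the difference between the classes has no replicate check. In cortex replicate 3 was above replicates 1 and 2 in 5 replication genes and 11 mitosis genes, against 35.6% of all genes. In cortex no member had replicate 3 at least 1.5-fold above replicates 1 and 2, against 0.204% of all genes.

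**Figure D3:**
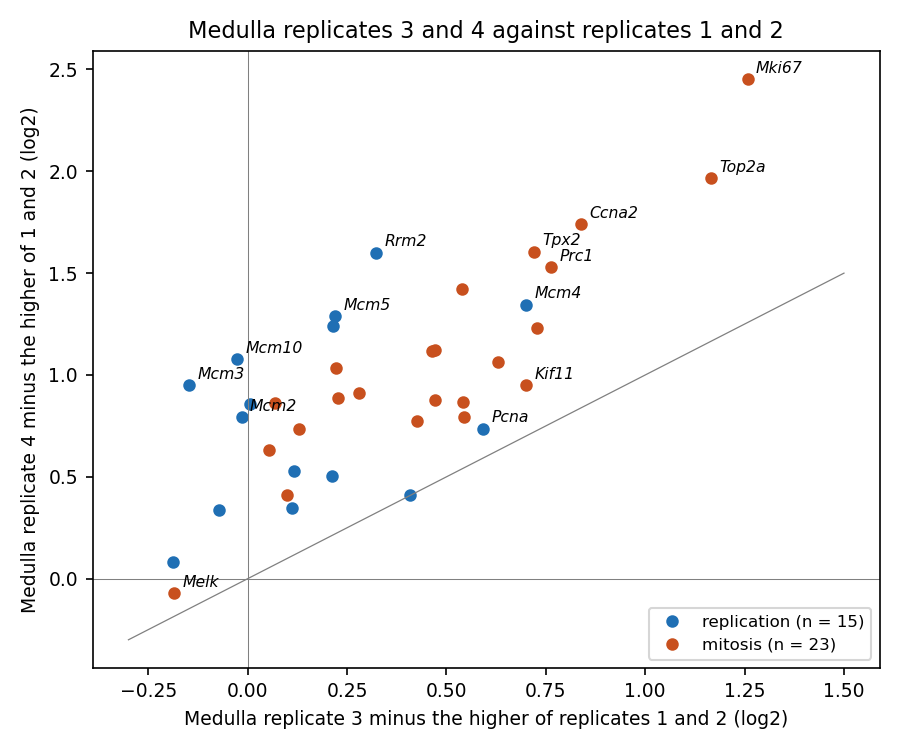
Excess of medulla replicate 3 (x axis) and of medulla replicate 4 (y axis) over the higher of medulla replicates 1 and 2, in log2 units, for 15 replication genes in blue and 23 mitosis genes in orange; the diagonal marks equal excess. Mki67 and Top2a lie far right at 1.26 and 1.17, Mcm4 and Pcna are the replication genes furthest right at 0.70 and 0.59, and Mcm2, Mcm3 and Mcm10 lie left of 0.

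Among the replication genes the helicase set was high on the replicate 4 arrays. In log2 intensity, with arrays in the order of replicates 1 to 4, Mcm5 measured 5.39, 5.44, 5.21 and 6.45 in cortex samples and 5.22, 5.20, 5.44 and 6.51 in medulla samples. The replicate 4 arrays alone were high, at 2.01-fold and 2.10-fold above the highest of the other 3, and the regions overlapped. Mcm3 measured 5.56, 5.43, 5.43 and 6.42 in cortex samples and 5.50, 5.56, 5.41 and 6.51 in medulla samples. The Mcm3 pattern was the same, with medulla replicate 3 the lowest medulla array on this probe set. On a second, dimmer probe set of Mcm3, medulla read 5.32, 5.19, 5.38 and 6.28, so replicate 3 was above replicates 1 and 2 there. Its cortex range was 0.75 in place of 0.99. Mcm2 stood at 5.49 to 5.70 on 3 cortex arrays and 6.38 on replicate 4, and at 5.65 to 5.66 on 3 medulla arrays and 6.45 on replicate 4. Mcm6 reached 5.95 and 6.55 on the replicate 4 arrays and Mcm7 6.81 and 6.97, and on the other arrays they lay at 5.11 to 5.52 and at 5.89 to 6.12. Mcm10, which helps start replication forks, was 2.11-fold above the other medulla arrays on replicate 4.

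Among the replication genes Mcm4 and Pcna had the largest excess of medulla replicate 3 over replicates 1 and 2, at 0.70 and 0.59 log2 units, followed by Tyms at 0.41 and Rrm2 at 0.32. Mcm4, another helicase subunit, measured 5.99, 5.73, 5.77 and 6.56 in cortex samples and 5.69, 5.83, 6.53 and 7.17 in medulla samples. Medulla replicates 3 and 4 were thus both high, replicate 3 by 1.63-fold over the higher of replicates 1 and 2. On a second probe set of Mcm4, dimmer and not used above, medulla read 4.77, 4.70, 5.08 and 5.40, the same order with a range of 0.70 in place of 1.48. Pcna measured 7.33, 7.27, 7.18 and 7.77 in cortex samples and 7.05, 7.19, 7.78 and 7.92 in medulla samples, with replicate 3 1.51-fold above the higher of replicates 1 and 2.

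Rrm2, the regulated subunit of ribonucleotide reductase, had the widest ranges of the replication class. It measured 5.24, 5.40, 5.58 and 6.71 in cortex samples and 5.20, 5.37, 5.69 and 6.97 in medulla samples, a range of 2.77-fold and 3.41-fold. A second, dimmer probe set of Rrm2 gave 5.75 and 5.66 on the replicate 4 arrays and 4.59 to 4.96 on the others. On it medulla replicate 3 was 4.89, close to the 4.85 of replicate 2, with replicate 1 at 4.61. Without the replicate 4 array the first probe set ranged by 0.34 log2 units among cortex arrays and 0.49 among medulla arrays.

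The genes that govern entry into S phase had narrower ranges than the Mcm genes and Rrm2. E2f1, the factor that switches on many replication genes, measured 4.68, 4.79, 4.84 and 4.97 in cortex samples and 4.79, 4.71, 4.61 and 4.88 in medulla samples, a range of 1.22-fold and 1.21-fold. The lower quartile of the probe sets was 4.44 to 4.48 on these arrays, not far below E2f1, and there a change is hard to see. All of Cdk2, Ccne1, Ccne2, Cdc6 and E2f1 were highest on replicate 4 of both regions. Cdk2, the S phase kinase, had a cortex range of 1.15-fold and a medulla range of 1.39-fold, Ccne1 of 1.19-fold and 1.56-fold, and Ccne2 of 1.40-fold and 1.48-fold. Cdc6, which loads the helicase, was the dimmest member, with 4.44 to 4.97 over all arrays. Tyms, which makes thymidylate, measured 7.02, 7.10, 7.19 and 6.90 in cortex samples and 6.86, 6.89, 7.30 and 7.30 in medulla samples. Cortex replicate 4 was its lowest cortex array, and medulla replicates 3 and 4 were level and high.

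**Figure D4:**
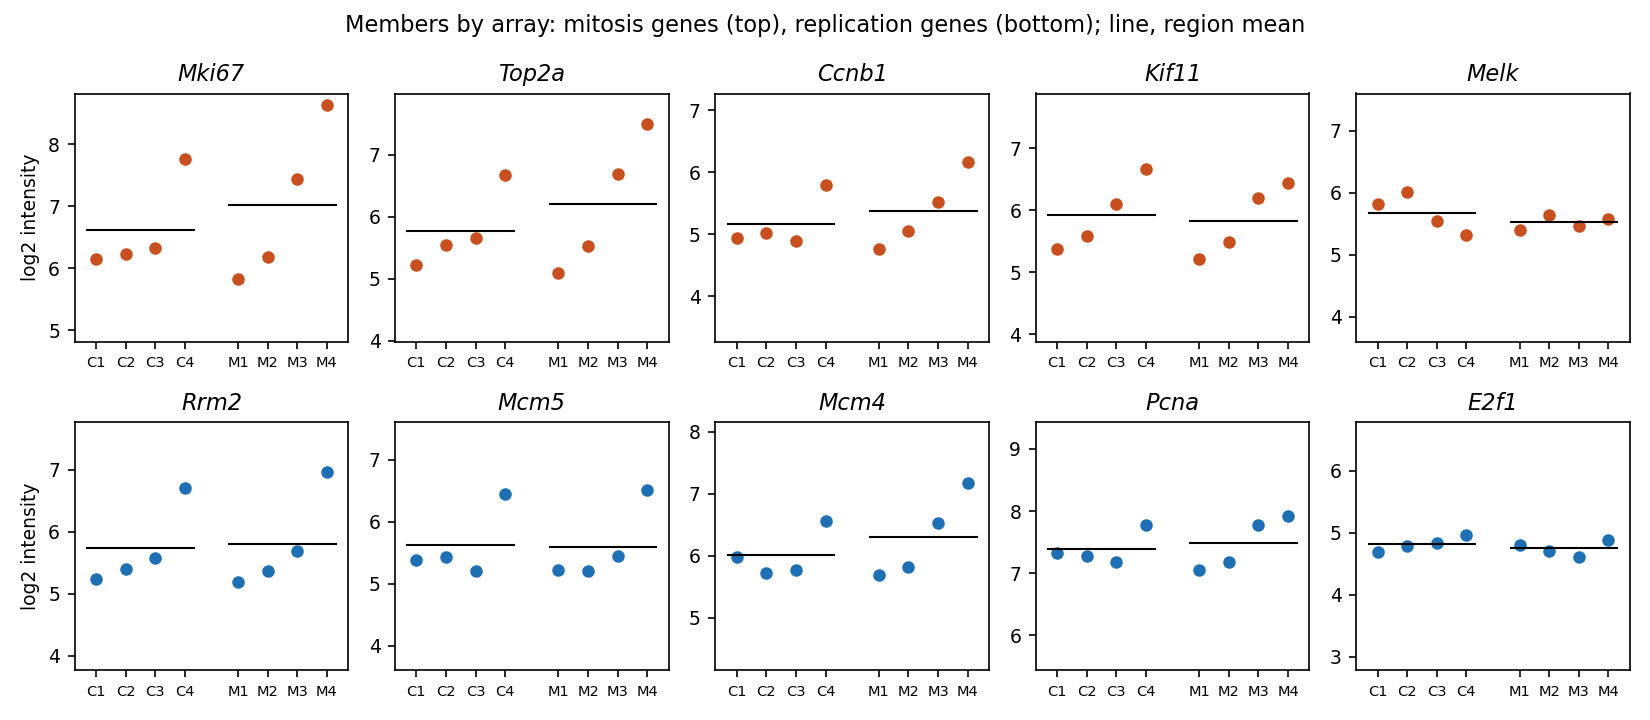
log2 intensity (y axis, each panel 4 log2 units high) of 5 mitosis genes (top) and 5 replication genes (bottom) on cortex arrays C1 to C4 and medulla arrays M1 to M4 (x axis), with a line at the mean of each region. Mki67, Top2a, Ccnb1, Mcm4 and Pcna are high on C4, M3 and M4, and Rrm2 and Mcm5 are high on C4 and M4. Kif11 is high on 2 arrays of each region, E2f1 varies little, and Melk is lowest on C4.

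Promoter letters that E2F factors are known to bind were counted in the genes with a promoter sequence at hand. RefSeq's rat promoter windows of build GRCr8 were matched by symbol for 33 of the 43 genes. Each runs from 250 bases before to 50 after a start site given for the gene. That site can lie inside the gene's span, as it does for Kif11 and Kif23. Those of Ccne2, Cdc6, Mcm4, Rrm2, E2f1, Ccna2, Aurkb, Tpx2, Pbk and Ube2c were not analysed here. The letters TTTCCCGC, TTTGGCGC or TTTCGCGC, on either strand, occurred in 6 of 12 replication windows and 1 of 21 mitosis windows, against 1.72% of all 33469 windows, and the difference between the classes was not tested. The 6 were Mcm2, Mcm3, Mcm5, Mcm6, Mcm7 and Tyms, and the 1 was Cdk1. The first is shown because Mcm5 reached 2-fold in both regions. It gives the 250 bases before the gene's start, chr19:13488563-13488812 on the plus strand, 5′ to 3′, with E2F letters and CCAAT boxes in capitals, and near its left end 2 overlapping E2F matches on opposite strands.
Mcm5: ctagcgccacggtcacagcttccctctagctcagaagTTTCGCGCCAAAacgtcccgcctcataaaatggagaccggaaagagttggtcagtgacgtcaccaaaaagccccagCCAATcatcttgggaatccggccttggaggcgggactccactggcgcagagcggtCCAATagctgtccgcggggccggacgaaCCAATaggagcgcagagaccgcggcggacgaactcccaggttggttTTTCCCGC

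Stretches of 30 bases around the E2F letters nearest to the start site show the shared core in the other 5 genes, each on the gene's strand, which is the minus strand for all 5, with the letters in capitals. They lie at chr4:122918088-122918117 for Mcm2, chr9:30733734-30733763 for Mcm3, chr13:42404471-42404500 for Mcm6, chr12:22163212-22163241 for Mcm7 and chr9:120776102-120776131 for Tyms. In Mcm2 and Mcm6 matches on both strands overlap, and in Mcm3 the match is on the other strand. Tyms holds the letters without sharing the pattern of the Mcm genes over the arrays. A match is a description of the letters and not a measured binding site.
Mcm2: tgacccggtTTTCGCGCGAAAacccgtggc
Mcm3: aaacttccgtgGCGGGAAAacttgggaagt
Mcm6: gcgtctgctTTTGGCGCGAAAttagcgtgt
Mcm7: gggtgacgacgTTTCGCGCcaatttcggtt
Tyms: aaggtgcgggtTTTGGCGCcgactacactg

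Among the mitosis genes, Mki67 and Top2a had the widest ranges. Mki67 measured 6.15, 6.22, 6.33 and 7.75 in cortex samples and 5.82, 6.18, 7.44 and 8.63 in medulla samples. One cortex array and both medulla replicates 3 and 4 were high, so that the range was 3.04-fold in cortex and 7.04-fold in medulla. Top2a measured 5.23, 5.54, 5.65 and 6.68 in cortex samples and 5.09, 5.52, 6.69 and 7.49 in medulla samples, a range of 2.73-fold and 5.28-fold. Medulla replicate 3 reached the level of cortex replicate 4 in Top2a and stayed below it in Mki67. It lay above the higher of replicates 1 and 2 by 2.39-fold in Mki67 and 2.24-fold in Top2a.

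Cyclins and their kinase followed with smaller ranges. Ccna2, the cyclin of S phase and G2, measured 5.04, 5.15, 5.16 and 6.02 in cortex samples and 5.01, 4.84, 5.85 and 6.75 in medulla samples. Ccnb1, the main mitotic cyclin, measured 4.95, 5.02, 4.90 and 5.80 in cortex samples and 4.76, 5.05, 5.52 and 6.17 in medulla samples. Cdk1, its kinase, measured 4.76, 4.97, 4.90 and 5.58 in cortex samples and 4.83, 5.00, 5.23 and 5.89 in medulla samples. In these 3 genes 1 cortex array was high, 2 medulla arrays were highest, and the regions overlapped. Ccnb2 had a cortex range of 1.33-fold and a medulla range of 2.16-fold. On a second, dimmer probe set of Ccnb2 the ranges were 0.47 and 1.51 log2 units, in place of 0.41 and 1.11.

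Genes of the spindle and of cell separation also varied widely in medulla. Tpx2, which activates the Aurora A kinase on the spindle, measured 4.88, 4.96, 4.90 and 5.70 in cortex samples and 4.59, 4.79, 5.51 and 6.40 in medulla samples. Prc1 measured 5.08, 5.54, 5.31 and 6.06 in cortex samples and 5.07, 5.33, 6.09 and 6.86 in medulla samples. Plk1, the mitotic polo kinase, ranged over 2.81-fold in medulla, the cytokinesis kinesin genes Kif20a and Kif23 over 2.55-fold and 2.26-fold, and Nusap1, which binds spindle microtubules, over 2.17-fold. Kinetochore and checkpoint genes reached 2.54-fold for Cenpf, 2.10-fold for Ttk and 2.04-fold for Bub1, and Bub1b 1.90-fold. Pbk, a mitotic kinase, ranged over 2.02-fold in medulla. The lowest values of Ttk, Bub1, Bub1b, Pbk and Tpx2 lay between 4.45 and 4.59, near the lower quartile of all probe sets, so their ranges may be understated.

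Some mitosis genes did not share the excess on medulla replicate 3. Aurkb, the kinase of the chromosomal passenger complex, measured 4.95, 5.03, 4.93 and 5.58 in cortex samples and 5.01, 4.99, 5.07 and 5.65 in medulla samples, so that the replicate 4 arrays alone were high. Ube2c and Cdc20, which mark mitotic proteins for destruction, were 1.74-fold and 1.52-fold above the other medulla arrays on replicate 4, and on replicate 3 within 0.07 and 0.13 log2 units of the higher of replicates 1 and 2. Aurka had a cortex range of 1.31-fold and a medulla range of 1.46-fold.

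Kif11 and Melk had patterns of their own. Kif11, the kinesin that pushes the spindle poles apart, measured 5.37, 5.59, 6.11 and 6.66 in cortex samples and 5.21, 5.49, 6.19 and 6.44 in medulla samples. It was the member with the largest excess of cortex replicate 3 over replicates 1 and 2, at 0.52 log2 units, against a median of -0.06 for the mitosis genes. Melk measured 5.82, 6.01, 5.54 and 5.31 in cortex samples and 5.40, 5.65, 5.46 and 5.58 in medulla samples. Cortex replicate 4 was its lowest cortex array, and its medulla range was 1.18-fold.

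The letters of the CHR element, a site known from genes of G2 and mitosis, were counted in the same windows. The letters TTTGAA or TTCGAA occurred in 13 of 21 mitosis windows and 3 of 12 replication windows, against 19.7% of all windows, and the difference between the classes was not tested. CCAAT occurred in 17 mitosis windows and 8 replication windows, against 37.5% of all. Top2a is shown because it reached 2-fold in both regions. The line gives the 250 bases before its start, chr10:84473094-84473343 on the minus strand, with CHR letters and CCAAT boxes of either strand in capitals.
Top2a: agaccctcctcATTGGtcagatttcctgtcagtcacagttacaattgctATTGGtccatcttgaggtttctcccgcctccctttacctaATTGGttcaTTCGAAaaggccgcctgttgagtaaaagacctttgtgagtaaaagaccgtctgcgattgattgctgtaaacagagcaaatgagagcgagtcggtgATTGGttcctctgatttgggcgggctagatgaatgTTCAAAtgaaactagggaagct

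The 30-base stretches of 6 other mitosis genes are set side by side because they share the 6 letters TTTGAA in the same orientation. They lie at chr1:199952675-199952704 for Mki67, chr8:79981684-79981713 for Ccnb2, chr5:137255833-137255862 for Cdc20 and chr8:71320646-71320675 for Kif23, all on the minus strand, and at chr20:19265265-19265294 for Cdk1 and chr1:143659451-143659480 for Prc1 on the plus strand. Kif11 is added because it reached 2-fold in both regions. Its window held a CCAAT box on the other strand, shown in capitals at chr1:244536794-244536823 on the plus strand, and neither the CHR nor the E2F letters. The Kif11 window lies inside the gene's span, chr1:244494916-244589250, so the bases before the outer start of Kif11 were not read. No letters of these 3 kinds were found in the windows of Melk, Aurka, Bub1, Ccne1 and Tk1, which says only that they are not in these 300 bases.
Mki67: ccgccgttttcgTTTGAAttgggcgggcac
Ccnb2: agcggcgcggtaTTTGAAtcgcggacccag
Cdc20: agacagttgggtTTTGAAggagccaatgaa
Kif23: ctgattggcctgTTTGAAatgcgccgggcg
Cdk1: taccgcggtgagTTTGAAactgctggcact
Prc1: cctccggctcggTTTGAAttccgcggggtc
Kif11: cgccgctctgccATTGGccccgcaagtcgt

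Further genes of the same processes, listed by function, were set beside the members. Of 63 measured mitosis genes, 59 were highest on replicate 4 of both regions, against 17% of all genes, and 51 had medulla replicate 3 above both replicates 1 and 2, against 35.5%. Of 39 measured replication genes, 32 and 21 did so. The median range was 0.47 in cortex and 0.80 in medulla for the mitosis list, and 0.35 and 0.50 for the replication list. A 2-fold medulla range was reached by 20 of the 63 mitosis genes and 2 of the 39 replication genes, against 3.8% of all genes. By limma with adjustment over all genes, 0 of either list were called between the regions.

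The genes with the widest smaller range in those lists were Ect2, Arhgap11a and Incenp for mitosis. Ect2, which starts the furrow that cuts the cell apart, measured 4.91, 5.09, 5.08 and 6.29 in cortex samples and 4.60, 4.84, 5.70 and 6.50 in medulla samples. Arhgap11a ranged over 3.53-fold in medulla. Incenp, the scaffold of the passenger complex, measured 5.85, 6.21, 6.88 and 7.07 in cortex, so that replicates 3 and 4 were both high there, as in Kif11. For replication they were Rfc4, Lig1 and Pola1, the clamp loader, ligase and polymerase genes, whose medulla ranges were 1.82-fold, 1.73-fold and 1.79-fold. Pola1 was at 6.09 on medulla replicate 3 against 5.49 and 5.45 on replicates 1 and 2.

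Upstream of S phase, 15 genes listed for control of G1, the phase before S phase, were measured. Of these, 10 were highest on replicate 4 of both regions, against 17% of all genes, and Myc had the widest smaller range. Myc, a transcription factor that drives growth, measured 5.88, 5.79, 5.64 and 8.35 in cortex samples and 5.80, 5.71, 6.08 and 8.29 in medulla samples. It was 5.55-fold and 4.65-fold above the other arrays on the replicate 4 arrays, and medulla replicate 3 stood at 6.08. Cdk4, the partner of the D cyclins, was highest on the same arrays, at 8.35 and 8.71 against 7.66 to 7.86 on the others. Rbl2, the RB family protein of resting cells, was lowest there, at 6.54 and 6.93 against 7.40 to 7.71 on the others.

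Genes that brake the cycle were mixed. Of 10 measured, 3 were highest on replicate 4 of both regions, against 17% of all genes. Cdkn1a, the p21 inhibitor, measured 5.60 on both replicate 4 arrays and 4.97 to 5.21 on the others. Gadd45a, a stress gene, was at 8.83 and 8.53 there against 7.78 to 8.29. Cdkn1c, the p57 inhibitor, was lowest there, at 5.84 and 5.98 against 6.17 to 6.89. By limma with adjustment over all genes, 0 of the 15 and 0 of the 10 genes were called between the regions.

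Markers of cell types that could hold dividing cells were read on the same arrays. Of the 12 injured tubule markers, 9 were highest on replicate 4 of both regions, against 17% of all genes, and 5 had medulla replicate 3 at least 1.5-fold above replicates 1 and 2, against 1.28%. Havcr1, kidney injury molecule 1, measured 7.54 and 11.27 on cortex replicates 3 and 4 and 8.95 and 11.32 on medulla replicates 3 and 4, against 4.54 to 5.15 on the other 4 arrays. On cortex replicate 3, where Havcr1 was 7.54, the 12 injured tubule markers summed to 2531, against 2307 and 1921 on replicates 1 and 2. Of the 12, 8 lay above replicates 1 and 2 there, against 35.6% of all genes. The bright markers moved in opposite directions, Clu at 9.99 against 8.78 and 8.64, and Spp1 at 9.18 against 10.01 and 9.56. The median deviation of the mitosis genes on that array was -0.14, and 0.02 without cortex replicate 4. The 10 macrophage and neutrophil markers summed to 587 to 1031 in cortex, highest on replicate 1, where the brightest, Lyz2, stood at 9.18. In medulla they summed to 789 to 1527, highest on replicate 4. Taken singly, 5 of the 10 were highest on cortex replicate 4 and 7 on medulla replicate 4, against 32.1% and 27.1% of all genes. Medulla replicate 3 lay above replicates 1 and 2 in 7 of the 10, against 35.5% of all genes, and their sum there was 1367. The 7 measured lymphocyte markers summed to 233 to 370 in cortex, highest on replicate 1. In medulla they summed to 280 to 412, highest on replicate 3. The brightest, Cd4, stood at 7.70 and 8.02 on these arrays. The rest of the list lay between 4.35 and 5.50 on all 8 arrays, so the sum is largely a reading of Cd4. Of the 7, 4 were highest on medulla replicate 4, against 27.1% of all genes. In 1, medulla replicate 3 lay above replicates 1 and 2, against 35.5% of all genes. The T cell marker Cd3e and the B cell marker Ms4a1 lay between 4.40 and 4.71 on all 8 arrays, near the lower quartile of all probe sets. The 7 measured fibroblast markers summed to 749 to 1459 in cortex, highest on replicate 1. In medulla they summed to 878 to 1798, highest on replicate 4, with replicate 3 close at 1783. Of the 7, 0 were highest on cortex replicate 4 and 3 on medulla replicate 4, against 32.1% and 27.1% of all genes. Medulla replicate 3 lay above replicates 1 and 2 in 6 of these 7, against 35.5% of all genes. The proximal tubule sum was lowest on replicate 4 of each region, where most division genes were highest, at 11931 in cortex and 8763 in medulla. Of the 10 proximal tubule markers, 3 were highest on cortex replicate 4 and 2 on medulla replicate 4, against 32.1% and 27.1% of all genes. The summed markers of 3 other kidney cell types were also lowest on replicate 4 of each region. The 5 measured thick ascending limb markers summed to 2843 there in cortex, with 6925 to 8221 elsewhere, and to 3331 in medulla, with 6483 to 7906 elsewhere. The 8 collecting duct markers summed to 1113 against 1860 to 2043 in cortex, and to 994 against 1756 to 3223 in medulla. The 5 measured endothelial markers summed to 796 against 1139 to 1553 in cortex, and to 1051 against 1346 to 1608 in medulla. No marker of these 3 lists was highest on replicate 4 of either region, against 32.1% and 27.1% of all genes. Not all were lowest there. Cldn16 stood at 7.81 and Cdh5 at 7.69 on medulla replicate 4, and Slc26a4 at 8.33 on cortex replicate 4. The other arrays of the region gave 7.74 to 7.84, 7.38 to 7.73 and 7.20 to 8.47. The part of these cells in the levels of the division genes was not tested.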

How the data were processed

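Expression was measured in 8 rat kidney samples, 4 of cortex and 4 of medulla. The authors deposited 1 linear intensity per probe set and array, and the submitters' processing notes name RMA and Affymetrix Expression Console, with versions not given in the sources used here. Array medians lay between 34.1 and 34.7, so the values were read as already normalized and were taken to log2 with no pseudocount, as no deposited intensity was 0 or below.

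Of 29870 probe sets, 18511 carried 1 symbol, 575 several genes and 10784 none. Symbols were checked by Entrez identifier against RefSeq's GRCr8 table (18394 matched, 0 changed), and the brightest probe set was kept per gene, giving 18166 genes with no filter on dim ones. No array pair shared more than 1 identical value.

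The region contrast was fitted in R 4.3.3 by limma 3.58.1 (lmFit and eBayes, with Benjamini-Hochberg adjustment over all genes), with a call at adjusted p under 0.05 and at least 2-fold. The pipeline was tested on simulated data. Ranges and deviations carry no test. Arrays were numbered 1 to 4 within a region in accession order, so the numbers are names only. Figures used matplotlib 3.10.9. The members, the gene lists and the split into replication and mitosis genes were chosen with earlier results of these data known. The genes named with values were 8 fixed ones, in each class the 6 with the widest smaller regional range and the 3 with the narrowest larger one, the 3 highest and 3 lowest region differences, and 3 genes per further list. Other members are named to account for the whole set. Alternatives were quantile normalization, centring on array medians, averaging the probe sets of each gene, a filter that drops genes at or below percentile 30 of mean intensity, a trended robust prior, array weights, the adjusted p alone, 1.5-fold and 3-fold ranges, class means, the mitosis class without Mki67, Top2a and Ccna2, and each array left out. The promoter stretches shown beside those of Mcm5, Top2a, Mki67 and Kif11 were picked after the letter matches were seen. Leaving out both replicate 4 arrays was added after the data were seen.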

Additional observations from a re-analysis of the deposited data

Results flagged for a closer look

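Single arrays were looked at for a wide gap to the rest of their region by Dixon's ratio of the gap to the range. Of 70 groups of 4 values, 18 passed. Chance passes about 1 in 20 groups of independent values, but many of these genes were named for their wide ranges and they move together, so that rate is no comparison for this count. Of the 18, 12 lay on cortex replicate 4 and 5 on medulla replicate 4.

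The class medians passed in cortex alone, with a deviation of 0.46 on cortex replicate 4 for replication genes and 0.46 for mitosis genes. On that array the log2 values that passed were 6.61 for Cdk2, 6.42 for Mcm3, 6.81 for Mcm7, 7.75 for Mki67, 5.80 for Ccnb1, 6.02 for Ccna2, 5.58 for Aurkb, 6.56 for Lig1, 6.29 for Ect2 and 8.35 for Myc. On medulla replicate 4 they were 6.45 for Mcm2, 6.51 for Mcm3, 5.65 for Aurkb, 8.29 for Myc and 8.71 for Cdk4. The last was Aurka, whose 5.31 on cortex replicate 1 lay below the other cortex arrays.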

How the results depend on the processing

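No alternative called a member or any other gene between the regions. With a 1.5-fold range, 9 replication and 16 mitosis genes passed in cortex and 9 and 15 in both regions, and with a 3-fold range 0 and 1 passed in cortex, 1 and 5 in medulla, and 0 and 1 in both. With each array left out in turn, the replication counts ran from 0 to 2 in cortex, 0 to 7 in medulla and 0 to 2 in both, and the mitosis counts from 0 to 3, 4 to 17 and 0 to 3. Without medulla replicate 1 the mitosis count in medulla was 11. The median ranges ran from 0.17 to 0.72 (replication, cortex), 0.24 to 0.87 (replication, medulla) and 0.19 to 0.72 (mitosis, cortex). With both replicate 4 arrays left out these 3 medians were 0.17, 0.24 and 0.19, and 0 replication genes passed in either region or both, against 0, 4 and 0 mitosis genes in cortex, medulla and both. The median deviation on medulla replicate 3 ran from -0.04 to 0.40 for mitosis genes and -0.16 to 0.15 for replication genes with each array left out. Medulla replicate 3 lay 1.5-fold above replicates 1 and 2 in 1 replication gene by quantile normalization and 1 with the mean of probe sets.

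Region differences of single members turned sign with arrays left out, running from -0.0552 to 0.42 for Ccnb1, -0.0358 to 0.36 for Cdk1, -0.30 to 0.15 for Kif11, -0.13 to 0.26 for Mcm2, -0.14 to 0.80 for Mki67, -0.0482 to 0.24 for Pcna, -0.00363 to 0.59 for Prc1, -0.32 to 0.40 for Rrm2 and -0.00669 to 0.79 for Top2a. With array weights the Pcna medulla minus cortex difference was -0.0106 and the Rrm2 medulla minus cortex difference -0.00391. The cause was not tested. No paired analysis was possible because the labels give each array a number of its own and share none between the regions. Signal near the lower quartile limits the ranges of the dimmest members.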
